A study of Mus musculus with 6 samples.

Results

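The comparison described here was that of RNA recovered with an antibody to CPEB1 against RNA recovered with IgG, in freshly isolated mouse satellite cells (SCs), the muscle stem cells. It used 4 of the 6 libraries of the series, chosen by their antibody label: 2 CPEB1 immunoprecipitates (CPEB1 IP) and 2 IgG immunoprecipitates. Genes were ranked in both directions over the whole transcriptome, and 12124 of the 55376 genes in the count tables held enough reads to be tested. All libraries came from Muscle stem cells of the C57BL/6 strain at an age of 3 months. No mutation or treatment was given in the labels. The CPEB1 IP libraries were labelled anti-CPEB1, the IgG libraries anti-IgG, and the other 2 libraries were input RNA made with no antibody. The sorted cells were not cultured before lysis, and the study's methods give 1e+06 cells as the material of an immunoprecipitation. The study's methods describe the libraries of each group as biological replicates from independent experiments, with 2 per group.

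CPEB1 is an RNA-binding protein that recognises the cytoplasmic polyadenylation element (CPE), a short U-rich motif in the 3′ UTR of some mRNAs. Bound mRNAs can be held silent with a short poly(A) tail, or have the tail extended and be translated once CPEB1 is phosphorylated. In RNA immunoprecipitation the protein is pulled down with its RNA, and an unrelated antibody shows how much RNA of each gene is carried along on beads and antibody alone. A higher value in CPEB1 IP is therefore a difference in recovery relative to IgG, and it is a share of each library, not an amount of RNA.

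Of the genes highest in CPEB1 IP relative to IgG, 5 are shown here that held a CPE, searched as TTTTAT or TTTTAAT on the transcribed strand alone, in the last 200 bases of the annotated 3′ UTR. They show what the motif looks like in its setting. The CPE is in capitals and the window is written 5′ to 3′ as in the GENCODE transcript, with mm10 positions. The windows lie in exonic 3′ UTR sequence at chr2:4938568-4938597 (Phyh, plus strand), chr5:111289691-111289720 (Ttc28, plus strand), chr6:125130434-125130463 (Chd4, plus strand), chr11:101581761-101581790 (Nbr1, plus strand) and chr10:62580354-62580383 (Ddx21, minus strand).
Phyh: atgatgttctctTTTTATcacctgttaaca
Ttc28: agaactccatatTTTTATtgaggctgcagg
Chd4: ctgttggcatctTTTTAATaccaggaaccc
Nbr1: caacactaaagaTTTTATtcatgtttgaga
Ddx21: attacagcctgtTTTTATgttccagctgtc
The CPE ended 145 bases from the annotated 3′ end in Phyh, 71 in Ttc28, 139 in Chd4, 173 in Nbr1 and 115 in Ddx21. Among all tested genes with a 3′ UTR of at least 200 bases, 30.5% (2901 of 9511) held a CPE in the same window, so a match of this kind is common and is a description of the sequence alone.

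A second sequence is shown because it was shared by genes at the other end of the ranking. This run of 30 bases, alphabetically the first of 85 shared as widely, was found on the transcribed strand of 6 of the 15 genes with the largest falls or the smallest p-values. On either strand it was found in transcripts of 12 of the 12124 tested genes, 11 of them predicted genes on chromosomes 2 and 9 and the other Gm21738 on chromosome 14.
Shared run: aagtggatgtttctcattttccatgatttt
All 12 genes that held it were lower in CPEB1 IP, beside 18.7% of all genes tested. The run was sought among genes chosen for being lower, and several of the 12 overlap one another. The count of 12 therefore carries no further information.

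The 4 libraries differed in depth and in make-up. Counts on genes were 2564323 and 4941653 in CPEB1 IP replicates 1 and 2, and 1284716 and 1359052 in IgG replicates 1 and 2. In spite of the lower depth, a count was found at 32381 and 32328 genes in IgG, against 25280 and 29465 in CPEB1 IP. Genes not annotated as protein-coding took 7.24% and 7.09% of the IgG counts, and 3.38% and 3.10% of the CPEB1 IP counts. The share of each library's total, as implied by the FPKM values, that fell on genes was 39.5% and 39.1% in IgG, and 69.9% and 69.5% in CPEB1 IP. The trimmed mean of M-values (TMM) was used to set the scale for that reason, and values are given as counts per 1e+06 counts (CPM) on that scale. Pearson's r of log2 CPM across genes within CPEB1 IP was 0.983, within IgG 0.955, and from 0.916 to 0.918 across groups; genes are not independent replicates.

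CPEB1 IP and IgG differed at many genes. In the full fit more of them were lower than higher, but this balance turned whichever library was left out. With p-values of the edgeR quasi-likelihood test adjusted by the Benjamini-Hochberg method, 1779 genes (14.7% of those tested) were higher in CPEB1 IP and 2265 (18.7%) were lower. At least 10 counts in each input library were held by 99.8% of the genes higher and 53.4% of the genes lower. A gene can pass the filter through IgG alone. The changes were not alike in size. The median log2 fold change was 0.58 among genes called higher and -1.62 among genes called lower, and it was -0.01 over all genes. A log2 fold change over 1 with an adjusted p under the threshold was seen at 167 genes (1.38%), and one under -1 at 1779 genes (14.7%). Calls that held in the full fit and with each of the 4 libraries left out in turn numbered 796 higher (6.57%) and 438 lower (3.61%). Without CPEB1 IP replicate 2 the counts were 1054 higher and 677 lower, without CPEB1 IP replicate 1 they were 1297 and 846, and DESeq2 called 855 (7.05%) and 967 (7.98%). The scale mattered as much: with library totals implied by FPKM, which count reads outside genes, 7149 genes were higher and 937 lower, and the median of all genes moved by 0.81. Directions below are therefore relative to the middle gene of the transcriptome.

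**Figure D1:**
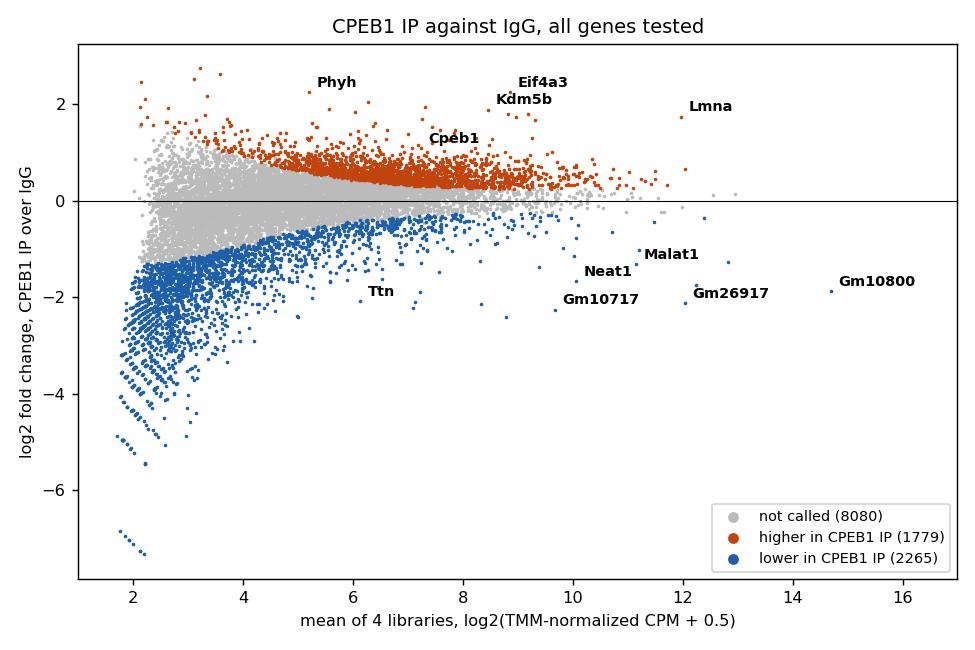
Fold change from IgG to CPEB1 IP on the log2 scale (vertical) against the mean level over the 4 libraries, log2 of TMM-normalized CPM plus 0.5 (horizontal), with 1 point for each of the 12124 genes tested. The 1779 genes called higher (red) spread to 2.75, and the 2265 called lower (blue) reach -7.33 among genes of low level.

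Cpeb1 itself was recovered with its own protein's antibody. Its level was 196 and 215 CPM in CPEB1 IP and 93.9 and 99.3 CPM in IgG, which is 2.13-fold higher (log2 1.09, SE 0.12, edgeR adjusted p = 2.50e-06). The groups did not overlap, but the share of all genes for which this holds was not counted. The gene lies on chromosome 7 at 81347026 to 81455465 and overlaps the pseudogene Rpl7a-ps9.

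Eif4a3, the RNA helicase at the core of the exon junction complex, was at 784 and 751 CPM in CPEB1 IP and at 162 and 161 CPM in IgG. It was 4.76-fold higher (log2 2.25, SE 0.10, edgeR adjusted p = 7.95e-12), with the pairs of replicates close together on either side. Its 3′ UTR of 180 bases held no CPE.

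Kdm5b, a demethylase of histone H3 lysine residues (chromosome 1, 134560171 to 134635285), was at 543 and 562 CPM in CPEB1 IP and at 148 and 149 CPM in IgG, a 3.71-fold difference (log2 1.89, SE 0.10, edgeR adjusted p = 8.02e-11). Chd4, the ATPase of the NuRD remodelling complex (chromosome 6, 125095981 to 125130591), was at 903 and 892 CPM against 264 and 254 CPM, or 3.47-fold higher (log2 1.79, SE 0.10, edgeR adjusted p = 7.02e-11). Both genes were chosen by fold change and p-value, so their wide gap from IgG beside close replicates was part of that choice. Ddx21, a nucleolar RNA helicase that acts in ribosomal RNA synthesis and processing (chromosome 10, 62580251 to 62602281), was at 975 and 966 CPM against 302 and 310 CPM (log2 1.66, SE 0.09, edgeR adjusted p = 9.83e-11).

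Lmna, which encodes the A-type nuclear lamins, was at 6517 and 5830 CPM in CPEB1 IP and at 1841 and 1846 CPM in IgG (log2 1.74, SE 0.10, edgeR adjusted p = 1.69e-10). Tln1, the talin that couples integrins to actin, was at 687 and 713 CPM against 208 and 194 CPM (log2 1.80, SE 0.10, edgeR adjusted p = 8.86e-11). Tln1 overlaps Creb3, and the counting was not stated to use strand. Gapvd1, which acts on Rab5 in endocytosis, was at 776 and 761 CPM against 219 and 241 CPM (log2 1.74, SE 0.10, edgeR adjusted p = 9.83e-11). Ttc28, a large protein with tetratricopeptide repeats, was at 251 and 249 CPM against 62.4 and 67.4 CPM (log2 1.94, SE 0.13, edgeR adjusted p = 7.95e-10). Nbr1, a cargo receptor of selective autophagy, was at 227 and 238 CPM against 69.5 and 73.5 CPM (log2 1.70, SE 0.13, edgeR adjusted p = 5.83e-09). The groups did not overlap in these genes, which choosing them by fold change and p-value all but ensured.

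Phyh and Armcx3, also among the largest rises, were at lower levels and had wider errors. Phyh, which starts the alpha-oxidation of branched fatty acids in peroxisomes, was at 53.8 and 66.2 CPM in CPEB1 IP and at 10.3 and 15.2 CPM in IgG (log2 2.25, SE 0.26). Armcx3, a mitochondrial outer membrane protein, was at 77.0 and 71.6 CPM against 22.9 and 16.7 CPM, or 3.74-fold higher (SE 0.21 on the log2 scale). Their edgeR adjusted p-values were 3.08e-06 for Phyh and 2.44e-06 for Armcx3. The genes of largest rise named here kept their call with each library left out, which was part of the rule that chose them, and under each scaling.

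Input gave a further level on a common scale, fitted over all 6 libraries. Input was not part of the test, and these levels are given side by side only. Kdm5b was at 158 and 137 CPM in input, beside 143 and 144 CPM in IgG and 546 and 566 CPM in CPEB1 IP. Gapvd1 was at 202 and 176 CPM in input, beside 211 and 232 CPM in IgG and 781 and 766 CPM in CPEB1 IP. For these genes input and IgG were at like levels and CPEB1 IP stood above both. Armcx3 was at 59.5 and 62.0 CPM in input, beside 22.0 and 16.0 CPM in IgG and 77.5 and 72.0 CPM in CPEB1 IP. Lmna was at 3196 and 2838 CPM in input, beside 1771 and 1774 CPM in IgG and 6560 and 5868 CPM in CPEB1 IP. IgG lay below input in Armcx3, Phyh, Lmna, Tln1, Ttc28 and Nbr1. In those genes the ratio of CPEB1 IP to IgG was larger than that of CPEB1 IP to input.

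**Figure D2:**
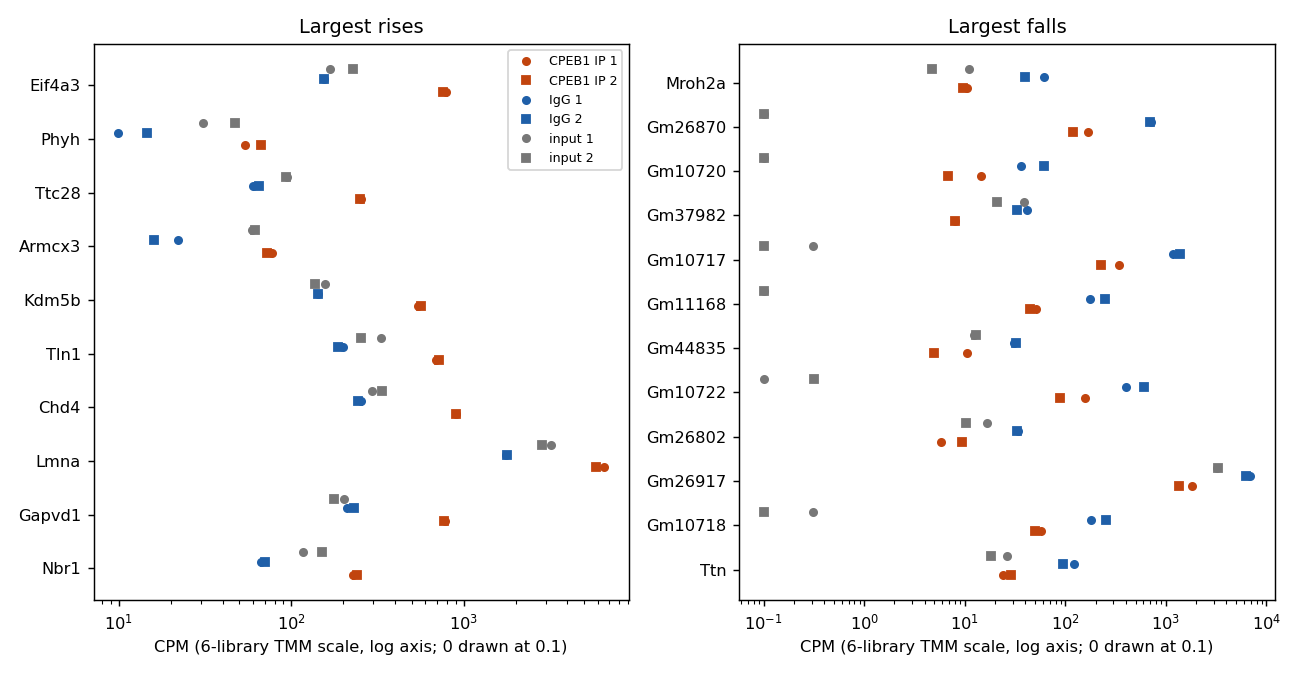
Levels of 10 of the genes with the largest rises (left) and of the 12 with the largest falls (right) in each library, as CPM on the 6-library TMM scale (log axis, a value of 0 drawn at 0.1). Each point is 1 library, red for CPEB1 IP, blue for IgG and grey for input; Kdm5b and Gapvd1 have input beside IgG, whereas the Gm genes of chromosome 9 have input at or near 0.

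A wider set of 25 genes was higher by over 1.5 on the log2 scale in the full fit and kept its call with each library left out. All 25 were protein-coding, none was a single-exon gene, and all had at least 10 counts in each input library. In the other direction, 237 genes were lower by over 1.5 under the same rule. Of these, 80 were not protein-coding, 55 had a single exon, 167 (70.5%) overlapped another annotated gene and 116 (48.9%) had at least 10 counts in each input library. Over all genes tested, 57.5% overlapped another gene and 87.8% had that many input counts.

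The lower end of the ranking held predicted genes with shared sequence. Gm26870 (chromosome 9, 3000282 to 3038313) was at 168 and 118 CPM in CPEB1 IP and at 745 and 733 CPM in IgG, or 5.28-fold lower in CPEB1 IP (log2 -2.40, SE 0.12, edgeR adjusted p = 5.05e-11). Gm10717, which lies within it, was at 342 and 227 CPM against 1231 and 1456 CPM (log2 -2.26, SE 0.14, edgeR adjusted p = 1.74e-10). Gm26870, Gm10717, Gm10718, Gm10720, Gm10722 and Gm11168 overlap or lie side by side and hold the run of 30 bases shown above on one strand or the other, so reads cannot be assigned to 1 of them with certainty. The 12 genes with that run together took 1.92% and 1.23% of the CPEB1 IP counts, 5.58% and 6.29% of the IgG counts, and 0.000979% and 0.00305% of the input counts. Their log2 fold changes ran from -2.40 to -1.75, and the IgG libraries held far more of them than either input library.

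Other genes with large falls had counts in input, though some at a low level. Gm26917 lies on chromosome 17 (39843013 to 39846341) and is typed in GENCODE as a lincRNA, with 1 exon block. Its level was 1805 and 1359 CPM in CPEB1 IP and 7195 and 6539 CPM in IgG (log2 -2.12, SE 0.12, edgeR adjusted p = 1.09e-10). What kind of RNA its reads came from was not tested. On the 6-library scale its input was at 3219 and 3303 CPM, between the other groups. Ttn, the giant elastic protein of the sarcomere, was at 23.6 and 28.7 CPM in CPEB1 IP and at 127 and 99.3 CPM in IgG (log2 -2.08, SE 0.18, edgeR adjusted p = 5.82e-08). Its input level was 26.1 and 18.3 CPM, at the side of CPEB1 IP. Ttn has 345 exon blocks and an exonic length of 116825 bases. Mroh2a was at 10.3 and 9.64 CPM against 63.9 and 41.7 CPM (log2 -2.40, SE 0.28, edgeR adjusted p = 4.23e-06). Sfi1, a centrosomal protein, was at 7.45 and 11.7 CPM against 45.8 and 39.4 CPM (log2 -2.08). The Sfi1 transcript held a CPE as well, in a 3′ UTR of 177 bases, which is too short for the share over windows of 200 bases.

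Long RNAs that remain in the nucleus were lower as a group. Of 12 listed nuclear long noncoding RNAs, 9 were tested and all 9 were lower in CPEB1 IP, with a median log2 fold change of -1.14 beside -0.01 over all genes and 18.7% called lower. With any 1 library left out, 8 were lower. Neat1, the scaffold of paraspeckles (chromosome 19, 5824708 to 5845478), was at 530 and 489 CPM in CPEB1 IP and at 1713 and 1523 CPM in IgG (log2 -1.67, SE 0.10, edgeR adjusted p = 9.99e-11). Malat1, a nuclear speckle RNA, was at 1477 and 1131 CPM against 3093 and 3382 CPM (log2 -1.32, SE 0.11, edgeR adjusted p = 5.91e-08). Kcnq1ot1, an imprinted RNA that silences its neighbours, was at 382 and 360 CPM against 972 and 956 CPM (log2 -1.38, SE 0.09), and it runs antisense within Kcnq1. Meg3 had a log2 fold change of -1.14 (SE 0.09). Summed over all 12 members and before TMM, these RNAs took 3270 and 2974 CPM for CPEB1 IP, 7782 and 7828 CPM for IgG, and 6093 and 3836 CPM for input. CPEB1 IP was the lowest of the 3 groups in this sum.

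RNAs made in mitochondria and the hosts of small nucleolar RNAs moved the same way at a smaller size. Over all genes tested, 18.7% were lower and 14.7% higher. Of 16 tested mitochondrially encoded RNAs, 7 were lower and 0 higher, with a median of -0.48. The number of these falls changed with the library left out. mt-Nd5, a subunit of complex I, was at 656 and 563 CPM in CPEB1 IP and at 1160 and 1250 CPM in IgG (log2 -0.99, SE 0.10, edgeR adjusted p = 3.49e-07). Of 13 tested genes listed as snoRNA hosts, 6 were lower and 0 higher, with a median of -0.55. Mir17hg, among these falls, overlaps microRNA genes and no snoRNA gene, so it is not a snoRNA host. Its level was 57.1 and 41.8 CPM against 110 and 129 CPM (log2 -1.31, SE 0.16, edgeR adjusted p = 9.08e-06). With library totals implied by FPKM, the smaller falls of this kind turned, as for the host gene Gas5, from -0.67 to 0.13.

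Chemosensory receptors give a view of genes that SCs are not known to use. The 1735 olfactory and vomeronasal receptor genes took, before TMM, 612 and 567 CPM for CPEB1 IP, 3518 and 3582 CPM for IgG, and 55.4 and 53.7 CPM for input. A count was found at 1239 and 1242 of them in IgG and at 56 and 53 in input. A total of 86 passed the filter, which for such genes means a count in IgG, so the calls over them carry no further information.

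Protein-coding genes were sorted by features that the test did not use. Among those with at least 10 counts in each input library, the share called higher was 0.916% in the lowest quintile of mean input FPKM, 8.45% in the middle quintile and 53.5% in the highest, which reached up to 2915 FPKM. The share called lower went the other way, from 23.0% to 3.11%. The median log2 fold change went from -0.50 through 0.08 to 0.36, so the order was also seen without a call, which deeper counts make easier. By exonic length, 25.7% of the shortest quintile and 8.60% of the longest were called higher, and 2.90% and 22.8% were called lower. By exon number, 15.4% of genes of 1 exon block, 22.5% of genes of 2 to 4 and 10.2% of genes of 20 or more were called higher, so the order by exon number was not even. These features vary together, and their separate parts were not tested.

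Gene types outside the protein-coding class stood lower. Of 197 TEC genes, a GENCODE type for regions still to be checked by experiment, 80.7% were called lower and 0 higher under the same input rule. Of 83 antisense genes, 53.0% were lower and 0 higher. Of 90 lincRNAs, 41.1% were lower and 3 were higher. Protein-coding genes showed 9.19% lower and 17.8% higher. An antisense gene cannot be told apart from its partner where strand was not used in counting.

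**Figure D3:**
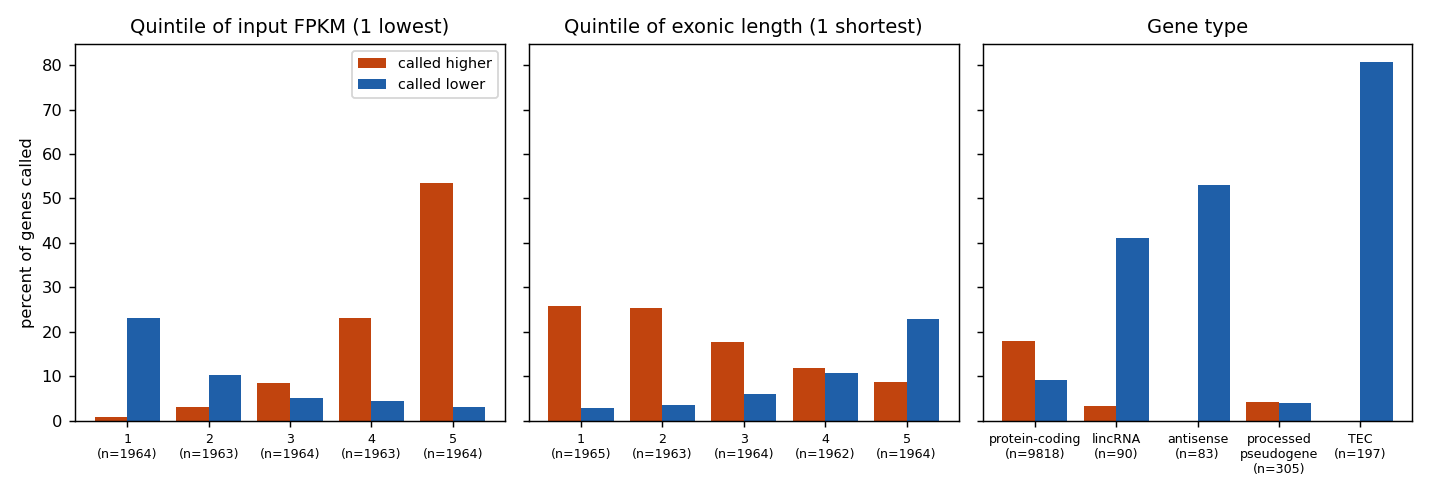
Percent of genes called higher (red) or lower (blue) in CPEB1 IP, among genes with at least 10 counts in each input library, by quintile of mean input FPKM (left), quintile of exonic length (middle) and gene type (right). Calls of higher reach 53.5% in the top quintile of input level, and calls of lower reach 80.7% among TEC genes.

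Genes that cells use for protein turnover and folding were higher more often than the background of 14.7%. Of 40 tested proteasome subunits, 26 were higher and 0 lower, with a median of 0.49. Psmb6, a catalytic subunit, was at 352 and 372 CPM in CPEB1 IP and at 201 and 210 CPM in IgG (log2 0.82, SE 0.10, edgeR adjusted p = 7.98e-06). Psmc3, an ATPase of the cap, was at 266 and 283 CPM against 168 and 150 CPM (log2 0.79, SE 0.11). Of the 14 genes of the CCT chaperonin and prefoldin, which fold actin and tubulin, 9 were higher and 0 lower. Tcp1 was at 457 and 467 CPM against 241 and 288 CPM (log2 0.80, SE 0.10, edgeR adjusted p = 1.18e-05). These lists sat high in input: 32 of the 40 proteasome genes and 12 of the 14 folding genes were in the top quintile of input FPKM, where 53.5% of protein-coding genes were higher, and 24 of those 32 and 8 of those 12 were.

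Ribosomal protein genes did not follow, though they were at least as abundant. Of 78 cytosolic ribosomal protein genes, 74 were in the top quintile of input, yet 2 were higher and 8 lower, with a median of -0.06. Rplp0 was at 4239 and 3480 CPM in CPEB1 IP and at 4217 and 4216 CPM in IgG (log2 -0.13, SE 0.11, edgeR adjusted p = 0.387), and its sign turned without CPEB1 IP replicate 2 (0.03). Near-identical pseudogenes of this family make its counts uncertain. Without CPEB1 IP replicate 2 the counts were 6 higher and 2 lower, without IgG replicate 1 they were 1 and 5, without IgG replicate 2 they were 2 and 4, and with upper quartile scaling 0 and 25. Of 76 mitochondrial ribosomal protein genes, 13 were higher and 0 lower (median 0.24), but without CPEB1 IP replicate 2 only 3 were higher.

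Genes of the lysosome and of vesicle coats were higher in part. Of 23 lysosomal genes, 12 were higher and 0 lower, with a median of 0.46, and 9 of the 11 in the top quintile of input were higher, where 53.5% of all protein-coding genes were. Ctsz, a cathepsin, was at 345 and 348 CPM against 208 and 159 CPM (log2 0.92, SE 0.11, edgeR adjusted p = 8.29e-06). Of 19 COPI and COPII coat genes, which act between endoplasmic reticulum and Golgi, 9 were higher and 0 lower (median 0.36), and 5 without CPEB1 IP replicate 2. In the top quintile of input were 11 of the 19, and 7 of these were higher. Of 38 tested Rab GTPases, 11 were higher and 2 lower (median 0.16), with Rab3c, among the falls, having passed the filter through IgG alone. Without CPEB1 IP replicate 1, 6 were higher, and 7 when IgG replicate 2 was left out. Of 28 peroxisomal genes, 9 were higher and 1 lower (median 0.39), Phyh among the rises, and 5 were higher without CPEB1 IP replicate 2. The peroxisomal genes were of modest level, with 3 in the top quintile of input.

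Of 18 tested glycolytic genes, 8 were higher and 0 lower, beside 14.7% and 18.7% over all genes tested, with a median of 0.60. Pkm, which makes pyruvate, was at 1049 and 1042 CPM in CPEB1 IP and at 511 and 526 CPM in IgG (log2 1.01, SE 0.09, edgeR adjusted p = 9.79e-08). Eno1 was at 265 and 271 CPM against 148 and 116 CPM (log2 1.02, SE 0.12, edgeR adjusted p = 4.18e-06). Several glycolytic genes, Eno1 among them, have near-identical pseudogenes, so their counts are uncertain. Of 6 glycolytic genes in the top quintile of input, 5 were higher, where 53.5% of all protein-coding genes were.

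Of 23 tested genes of cytoplasmic polyadenylation, 5 (21.7%) were higher and 2 (8.70%) lower, beside 14.7% and 18.7% over all genes. Their median was 0.12, and neither fall held without either CPEB1 IP replicate. The falls were Cpeb3 and Lsm14b, named after their values were seen. Both passed the filter through IgG alone, so the direction of these calls carries no further information. Cpsf2, a subunit of the cleavage and polyadenylation factor, was at 60.8 and 59.1 CPM against 30.8 and 28.0 CPM (log2 1.02, SE 0.20, edgeR adjusted p = 5.12e-04). Eif4e, the cap-binding protein, was at 537 and 517 CPM against 346 and 430 CPM (log2 0.44, SE 0.10, edgeR adjusted p = 0.00261). Around Eif4a3, 20 genes of the exon junction complex and nonsense-mediated decay were tested: 5 were higher and 2 lower, with a median of -0.03. Without CPEB1 IP replicate 2, 3 were higher, and neither fall held without IgG replicate 1. Other rises in that list were Acin1, at 163 and 178 CPM against 118 and 110 CPM (log2 0.59, SE 0.12, edgeR adjusted p = 9.04e-04), and Smg8, named after its values were seen (log2 1.04, edgeR adjusted p = 0.0289), whose call was lost without CPEB1 IP replicate 2 or IgG replicate 1.

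Of 16 listed genes known as CPEB1 targets in other cells, 9 were tested, and 2 were higher and 3 lower, with a median of 0.04. With so few genes these counts are not far from the 14.7% and 18.7% over all genes. Trp53, which encodes p53, was at 452 and 480 CPM in CPEB1 IP and at 234 and 241 CPM in IgG (log2 0.98, SE 0.10, edgeR adjusted p = 6.23e-07). Plat, the tissue plasminogen activator, was at 193 and 195 CPM against 132 and 105 CPM (log2 0.71, SE 0.12, edgeR adjusted p = 2.14e-04). Both kept their calls with each library left out. Ccnb2, a mitotic cyclin, was at 5.38 and 4.92 CPM against 19.7 and 18.2 CPM (log2 -1.88, SE 0.39, edgeR adjusted p = 0.00103), and Map2 and Camk2a, named here after their values were seen, were the other falls. Ccnb2 and Camk2a passed the filter through IgG alone, so the direction of their calls carries no further information. Without CPEB1 IP replicate 2, 1 of the 3 falls remained called.

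**Figure D4:**
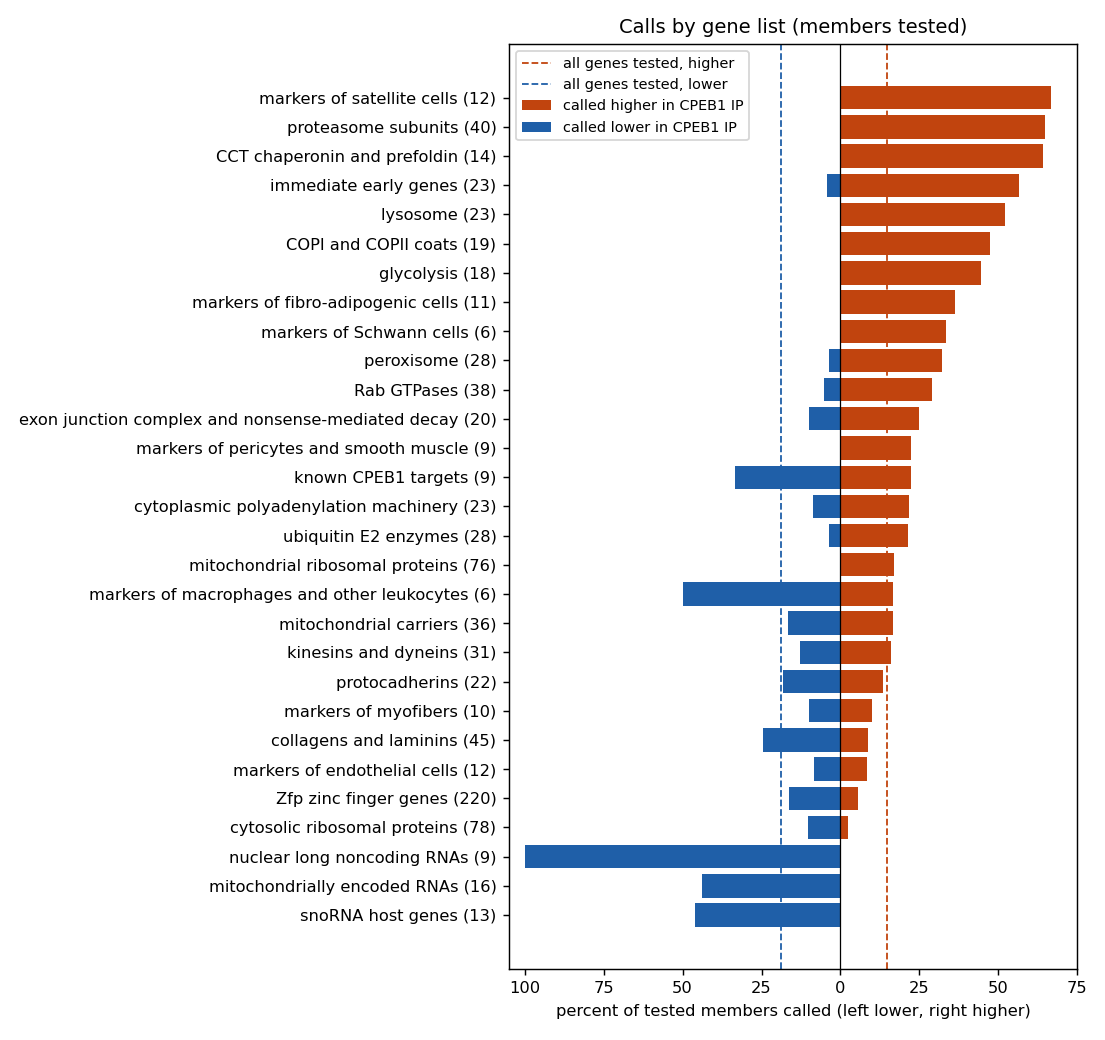
Percent of tested members called lower (blue, to the left) and higher (red, to the right) in CPEB1 IP for each gene list shown, with the number of members tested in brackets. Dashed lines mark 14.7% higher and 18.7% lower over all 12124 genes; proteasome subunits reach 26 of 40 higher and nuclear long noncoding RNAs 9 of 9 lower.

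CPEs were no more frequent in genes called higher than in the other genes searched. A CPE was found in the last 200 bases of the 3′ UTR of 27.4% of genes called higher (422 of 1541, exact 95% interval 25.2 to 29.7), 28.7% of genes called lower (412 of 1434, 26.4 to 31.1) and 31.6% of genes not called (2067 of 6536, 30.5 to 32.8). The intervals are Clopper-Pearson and cover counting error only. Among genes with at least 10 counts in each input library the shares were 27.5%, 29.7% and 31.6%. Of the 12 genes with the largest rises, 10 had a 3′ UTR of 200 bases or more, and 4 of those 10 held a CPE in the window. Over the whole 3′ UTR, whose length differs between genes, the shares were 62.2% of genes higher, 72.4% of genes lower and 68.3% of genes not called. In each of these searches the share among genes called higher was the lowest of the 3. For calls that held with each library left out, the share in the last 200 bases was 29.7% of genes higher (26.3 to 33.2) and 30.4% of genes lower. Over all genes searched it was 30.5%.

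Satellite cell markers were abundant in all libraries. All 12 satellite cell markers were tested, and their summed level before TMM was 13235 and 11661 CPM for CPEB1 IP, 10774 and 10696 CPM for IgG, and 12944 and 13777 CPM for input. Of them, 8 were higher and 0 lower in CPEB1 IP (median 0.35), beside 14.7% and 18.7% over all genes tested. All 12 lay in the top quintile of input, where 53.5% of protein-coding genes were higher. With so few markers, 8 of 12 is not far from that share. Vcam1 was at 1338 and 1248 CPM in CPEB1 IP and at 761 and 828 CPM in IgG (log2 0.70, SE 0.09, edgeR adjusted p = 1.59e-05). Markers of fibro-adipogenic cells, which lie beside SCs in muscle, summed to 2791 and 2970 CPM for CPEB1 IP, 2321 and 2299 CPM for IgG, and 4660 and 4313 CPM for input, and 4 of 11 were higher and 0 lower (2 without IgG replicate 2). Markers of endothelial cells gave 1 higher and 1 lower of 12, and those of myofibers 1 and 1 of 10, and without CPEB1 IP replicate 2 neither rise held, nor the myofiber rise without IgG replicate 2. The sort described in the study's methods kept cells that stained for Vcam1 and not for CD31, CD45 or Sca1, a gate that would remove endothelial cells, leukocytes and fibro-adipogenic cells. No listed marker was at 0 in all 4 libraries. The part of other cell types in the differences above was not tested, and in bulk libraries more cells of a type cannot be told apart from more RNA per cell.

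**Figure D5:**
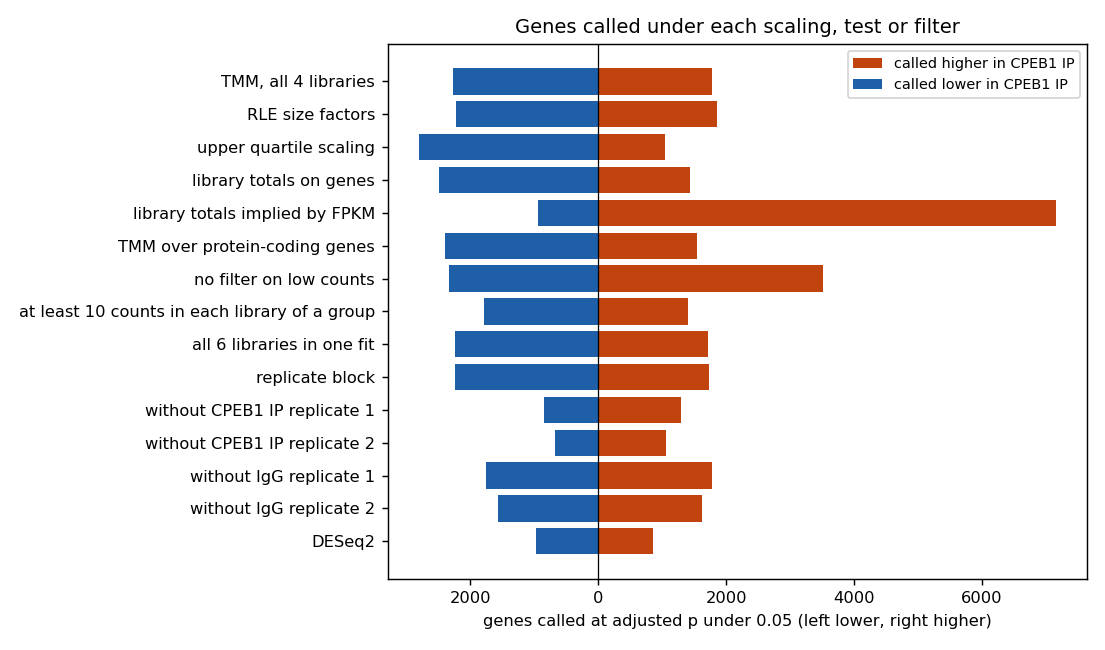
Number of genes called higher (red, right) and lower (blue, left) in CPEB1 IP under each scaling, filter, test and left-out library, at an adjusted p under 0.05. The bars run from 855 higher with DESeq2 to 7149 with library totals implied by FPKM, and from 677 lower without CPEB1 IP replicate 2 to 2796 with upper quartile scaling.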

How the data were processed

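RNA from CPEB1 IP, IgG and input was made into SMART-Seq2 libraries and sequenced as paired reads of 75 nt. According to the study's methods, reads were mapped to mm10 with HISAT 2.1.0, sorted with Samtools 1.9 and counted per gene with featureCounts 1.5.1. Strand setting, treatment of multimapped reads and annotation release are not given in the sources used here. The deposited count tables hold whole-number raw read counts per gene, made by the authors without normalization. The deposited FPKM tables hold the same genes scaled by the authors for exonic length and for library totals that exceed the counts on genes.

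Counts were joined by gene identifier, filtered with filterByExpr and scaled with TMM over the 2 CPEB1 IP and 2 IgG libraries. The edgeR 4.0.16 quasi-likelihood test (R 4.3.3) was run over 12124 genes with no covariate, and Benjamini-Hochberg adjustment was over all of them with a call at 0.05. CPM for display is on the TMM scale. Input libraries were not in the main test. They served to sort genes into classes, to give levels on the 6-library scale and sums over lists, and in the alternative fit of all 6 libraries. Gene types, lengths and 3′ UTRs came from GENCODE M21 on mm10, where 54469 genes matched by symbol, 785 by position and 122 not at all. Alternatives were RLE and upper quartile scaling, library totals on genes or implied by FPKM, TMM over protein-coding genes, other filters, all 6 libraries in one fit, a replicate block, each library left out, and DESeq2 1.42.0. Simulated counts of 12124 genes for this comparison gave 59 of 100 genes called at a log2 change of 1, 92 of 100 at 2, and 4 of 11924 unchanged genes.

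Named genes were Cpeb1, the 12 with the largest log2 fold change each way among those called in the full fit and with each library left out at a mean of at least 20 CPM, the 6 with the smallest p each way, the 8 multi-exon protein-coding genes with the largest falls, and in each list the 3 called members with the smallest p and the member of highest CPM. The lists and the comparison were chosen with earlier results of these data known, so lists are described by counts and medians with no test. Replicates differed by more than sampling noise, with a chi-square per gene of 3.21 in CPEB1 IP and 2.00 in IgG. Some genes and lists that this rule covers are not reported here.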

Additional observations from a re-analysis of the deposited data

How the results depend on the processing

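Of 1944 pairs of a named gene and an alternative, 1785 kept direction and side of the threshold, 112 kept direction and lost the call, 20 gained it and 27 changed sign; the cause was not tested. The numbers of genes higher and lower were 1857 and 2229 with RLE factors, 1037 and 2796 with upper quartile scaling (27.1% of calls higher, against 44.0%), 1435 and 2491 with library totals on genes, 7149 and 937 with totals implied by FPKM (88.4%), 1541 and 2394 with TMM over protein-coding genes, 3513 and 2336 with no filter (60.1%), 1404 and 1791 with at least 10 counts, 1714 and 2245 with all 6 libraries, and 855 and 967 with DESeq2. Adding a log2 change over 1 in size left 167 and 1779. Leaving out a library gave 1054 to 1783 higher and 677 to 1750 lower, where a lone library was assumed to vary like the other group. Adding the replicate number as a replicate block gave 1739 higher and 2231 lower. Deviations of same-numbered CPEB1 IP and IgG libraries had r = -0.00955 over 12124 genes, and no source used here says that a shared number marks a shared experiment, although the study's methods set each CPEB1 IP beside the IgG of its experiment. With totals implied by FPKM, the log2 fold change became 0.39 for Smg1, 0.32 for Rps24, 0.40 for Rpl10a, 0.24 for Rps12, 0.67 for Rplp0, 0.81 for Pank3, 0.13 for Gas5, 0.012 for Snhg1, 0.44 for mt-Co1 and 0.21 for Olfr1033. With upper quartile scaling it became -0.0078 for Myc, -0.055 for Psma3, -0.015 for Ube2d3 and -0.031 for Sdc4. With no filter it became 0.26 for Rplp0, 0.40 for Pank3 and 0.015 for mt-Co1. Pank3, at an adjusted p of 0.992 by edgeR, became 0.0096 with RLE, 0.067 with all 6 libraries, 0.0019 with the block and 0.016 with DESeq2. With a library left out, the log2 fold change was between -0.032 and 0.106 for Pank3, -0.064 and 0.319 for Sdc4, -0.040 and 0.597 for Hba-a1, and -0.239 and 0.031 for Rplp0. With no filter, the list medians less that of all genes became 0.064 for nuclear long noncoding RNAs, 0.86 for snoRNA hosts, 0.39 for snoRNA genes, 0.84 for histones and 1.02 for mitochondrially encoded RNAs. For histones it was 0.043 with all 6 libraries and between -0.445 and 0.034 with a library left out, and for pericyte markers between -0.309 and 0.339. The share with a CPE among genes higher, lower and not called was 17.7%, 18.5% and 21.1% in the last 100 bases, 62.2%, 72.4% and 68.3% over the whole 3′ UTR, and 22.1%, 23.4% and 25.0% for TTTTAT alone. With no filter, 16.8% of protein-coding genes were higher and 6.83% lower, and 0.329% and 4.35% of the others. The split by input counts, the CPE shares within it, and the calls held with each library left out were added after seeing the data. Depth limits what can be said of genes of low level.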

Other observations

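Immediate early genes, which are switched on within minutes of a stimulus and are known to be induced when SCs are isolated, were abundant in all libraries, with 21 of 23 tested members in the top quintile of input FPKM. In CPEB1 IP, 13 were higher and 1 lower, with a median log2 fold change of 0.36, and 13 of the 21 abundant members were higher, where 53.5% of all protein-coding genes of that quintile were. Junb was at 1740 and 1506 CPM in CPEB1 IP and at 1114 and 1097 CPM in IgG (log2 0.55, SE 0.10, edgeR adjusted p = 2.10e-04). Dusp1, a phosphatase of MAP kinases, was at 1527 and 1471 CPM against 1047 and 1059 CPM (log2 0.51, SE 0.09, edgeR adjusted p = 2.42e-04). Zfp36, which binds AU-rich elements, was at 459 and 426 CPM against 304 and 296 CPM (log2 0.56, SE 0.10, edgeR adjusted p = 2.11e-04). Upper quartile scaling left 8 of the 13 called.

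Other families varied in their shares of calls. Of Zfp genes 5.45% were higher, and of ubiquitin E2 enzymes 3.57% were lower. Of 220 tested Zfp zinc finger genes, 12 were higher and 36 lower (median -0.20). Without CPEB1 IP replicate 1 the counts were 4 higher and 9 lower, without CPEB1 IP replicate 2 they were 6 and 8, and without IgG replicate 2 they were 5 and 22. Of 45 collagens and laminins, 4 were higher and 11 lower (median -0.01), with Col6a1 at 288 and 333 CPM in CPEB1 IP against 192 and 171 CPM in IgG (log2 0.79, SE 0.11, edgeR adjusted p = 3.34e-05). Of 31 kinesins and dyneins, 5 were higher and 4 lower, but 2 and 2 without CPEB1 IP replicate 1, and 1 and 2 without CPEB1 IP replicate 2. Of 36 mitochondrial carriers, 6 were higher and 6 lower, and the falls numbered 0 without CPEB1 IP replicate 1, 1 without CPEB1 IP replicate 2 or IgG replicate 2, and 2 without IgG replicate 1. Of 28 ubiquitin E2 enzymes, 6 were higher and 1 lower, with Ube2g2 at 374 and 339 CPM against 182 and 216 CPM (log2 0.84, SE 0.11, edgeR adjusted p = 1.41e-05). Of 22 protocadherins, 3 were higher and 4 lower, but 1 and 1 without CPEB1 IP replicate 1, 2 and 2 without CPEB1 IP replicate 2, and 1 and 3 without IgG replicate 1. Over all genes, 14.7% were higher and 18.7% lower. Some falls counted in this paragraph were at genes that passed the filter through IgG alone, among them Kif14, Slc25a21, Ptprc and Csf1r. The direction of such calls carries no further information. Of 6 tested leukocyte markers, 1 was higher and 3 lower, with 1 fall left without CPEB1 IP replicate 1 and no rise without IgG replicate 1. Of 9 pericyte markers 2 were higher, but 1 without CPEB1 IP replicate 2 or IgG replicate 2. Of 6 Schwann cell markers 2 were higher, but 1 without either CPEB1 IP replicate or IgG replicate 2.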
